A study of Mus musculus with 15 samples.

Results

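The enzymes that convert glucose to lactate were followed through 15 ribosome profiling libraries of mouse embryonic stem cells (mESCs), using 10 named genes: *Hk2*, *Gpi1*, *Pfkl*, *Aldoa*, *Gapdh*, *Pgk1*, *Pgam1*, *Eno1*, *Pkm* and *Ldha*. The genes were chosen by name, 1 transcript per gene, and all 10 were among the 21727 transcripts listed. A second *Aldoa* transcript, with a mean of 4.07 counts per library, was left aside, so 11 listed transcripts belonged to these genes. In ribosome profiling, RNase digests lysate and the mRNA stretches covered by ribosomes, the ribosome-protected fragments (RPFs), are sequenced. The study asked whether ribosomes carrying either of the paralogous proteins Rps27 and Rps27l translate different mRNAs.

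All cells derived from the E14Tg2a.4 mESC line and were treated with cycloheximide before lysis. The *Rps27-FLAG* line (eS27-FLAG in the labels) carried a homozygous 3xFLAG tag at the C-terminus of Rps27, the *Rps27l-FLAG* line (eS27L-FLAG) carried the same tag on Rps27l, and the WT line was untagged and passage-matched. Each line was represented by 3 separately selected clones, numbered as replicates 1 to 3. Total RPFs were sequenced from all 9 clones. Anti-FLAG immunoprecipitated (IP) RPFs were sequenced from the 6 tagged clones, and the IP and total libraries of a replicate came from the same clone. No IP from the untagged line was analysed here, so RPFs that bind the beads without a tag were not measured. The 5 libraries of a replicate number, 1 of each kind, were pooled after linker ligation and prepared together. An RPF count reflects both how much of an mRNA was present and how many ribosomes it carried, and these cannot be told apart here.

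Glycolysis splits a hexose into a pair of trioses and yields ATP and pyruvate in the cytosol. Hexokinase and phosphofructokinase spend ATP in the upper arm, and phosphoglycerate kinase and pyruvate kinase regain it in the lower arm. Lactate dehydrogenase then converts pyruvate to lactate and restores NAD+. Pluripotent stem cells are known for rapid glycolysis even with oxygen present.

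Libraries held 3972152 to 8064166 counts (median 6673935), and 10085 transcripts passed the filter on low counts. All 10 enzymes passed. All 12 mESC markers exceeded 2 CPM (counts scaled to library size) in every library, with a summed level of 4898 to 5402 CPM in total RPFs and 5637 to 5963 CPM in IP RPFs. Of 18 markers of fibroblasts, primitive endoderm and other lineages, 2 exceeded 2 CPM in every library and 7 (*Col1a2*, *Col3a1*, *Foxa2*, *T*, *Mixl1*, *Cdx2* and *Elf5*) stayed under it throughout. The summed primitive endoderm markers were 11.1 to 23.8 CPM in *Rps27l-FLAG* total RPFs and 5.18 to 16.5 CPM in WT. Their part in the results below was not tested.

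Only reads that aligned to 1 transcript were counted, so sequence shared between transcripts limited what could be counted for several of these enzymes. *Gapdh*, which oxidizes glyceraldehyde 3-phosphate, lies at chr6:125161854-125166467 (GRCm38, minus strand). Its 999-nt coding sequence (CDS) differed at 7 positions from that of *Gm10358* (chr8:75405340-75406589) and at 7 from that of *Gm3839* (chr14:11280735-11356726), both listed as protein coding. The 60-nt stretch with the most differences among these copies, CDS positions 4 to 63 in the GENCODE M21 transcripts, is shown to let the near-identity be seen. Capitals mark bases of *Gapdh* that differ in either copy, and in a copy the bases that differ from *Gapdh*.
Gapdh: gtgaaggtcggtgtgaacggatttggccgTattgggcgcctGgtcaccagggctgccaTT
Gm10358: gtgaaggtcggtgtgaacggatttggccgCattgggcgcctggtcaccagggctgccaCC
Gm3839: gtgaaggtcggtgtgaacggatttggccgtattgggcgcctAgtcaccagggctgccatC
Elsewhere the *Gm10358* copy matched *Gapdh* without a difference for 437 nt. Both copies were nearly empty: *Gm10358* had 8 counts and *Gm3839* had 9 counts over all 15 libraries.

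*Aldoa* (chr7:126795235-126800447, minus strand), which cleaves fructose 1,6-bisphosphate, was closest to *Aldoart1* (chr4:72850583-72852632) and *Aldoart2* (chr12:55565239-55566896). The CDS of *Aldoart1* differed from it at 63 of 1092 positions and that of *Aldoart2* at 91. The stretch richest in differences, CDS positions 991 to 1050, is shown in the same way, as an intermediate case.
Aldoa: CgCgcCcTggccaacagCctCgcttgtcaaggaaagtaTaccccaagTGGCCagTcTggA
Aldoart1: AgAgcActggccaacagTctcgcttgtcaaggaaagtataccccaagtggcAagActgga
Aldoart2: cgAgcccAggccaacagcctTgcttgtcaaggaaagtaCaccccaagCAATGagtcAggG
*Aldoart1* had 15 counts and *Aldoart2* had 16 counts over the 15 libraries.

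*Pgk1* (chrX:106187100-106203699, plus strand), which makes the first ATP of the lower arm, showed the opposite case among the listed transcripts. Its paralog *Pgk2* (chr17:40207015-40208640) differed at 259 of 1251 positions, and no identical run exceeded 22 nt. The first 60 nt of both CDSs, where they differed most, are shown for comparison.
Pgk1: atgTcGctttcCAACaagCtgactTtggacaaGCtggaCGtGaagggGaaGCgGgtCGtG
Pgk2: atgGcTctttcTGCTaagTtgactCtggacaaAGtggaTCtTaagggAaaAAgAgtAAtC
*Pgk2* had 3 counts in all, 12 libraries had none, and no 28-nt window of *Pgk1* occurred in another listed transcript. A count of 0 was read as allowing a mean of up to 3 uniquely placed RPFs, as counts scatter around their mean.

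Cutting each CDS into all windows of 28 nt, about the length of an RPF, gave a measure of this limit. Identical windows in other listed transcripts made up 89.6% of the 972 windows of *Gapdh* and 87.9% of the 1275 windows of *Eno1*, the enolase gene. The *Eno1* windows were shared with *Eno1b*, whose CDS differed from *Eno1* at 8 of 1302 positions. The share was 30.5% for *Aldoa*, 11.4% for *Ldha*, which had 78 windows in common with *Gm13315*, and at most 0.383% for each of the other 6 enzymes. With up to 2 mismatches allowed, all *Gapdh* windows, 99.7% of *Eno1* windows, 90.1% of *Aldoa* windows and 53.3% of *Ldha* windows had a counterpart, against 0% for *Gpi1* and 6.17% for *Hk2*. Copies outside the listed transcripts were common as well. In GENCODE M21, all 1224 windows of *Pgk1* occurred unchanged in the processed pseudogene *Gm5537*, all 735 windows of *Pgam1* in *Pgam1-ps2*, and 1301 of 1566 windows of *Pkm* in other genes. Any RPFs from such unlisted copies could not be told from those of the enzyme.

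**Figure D1:**
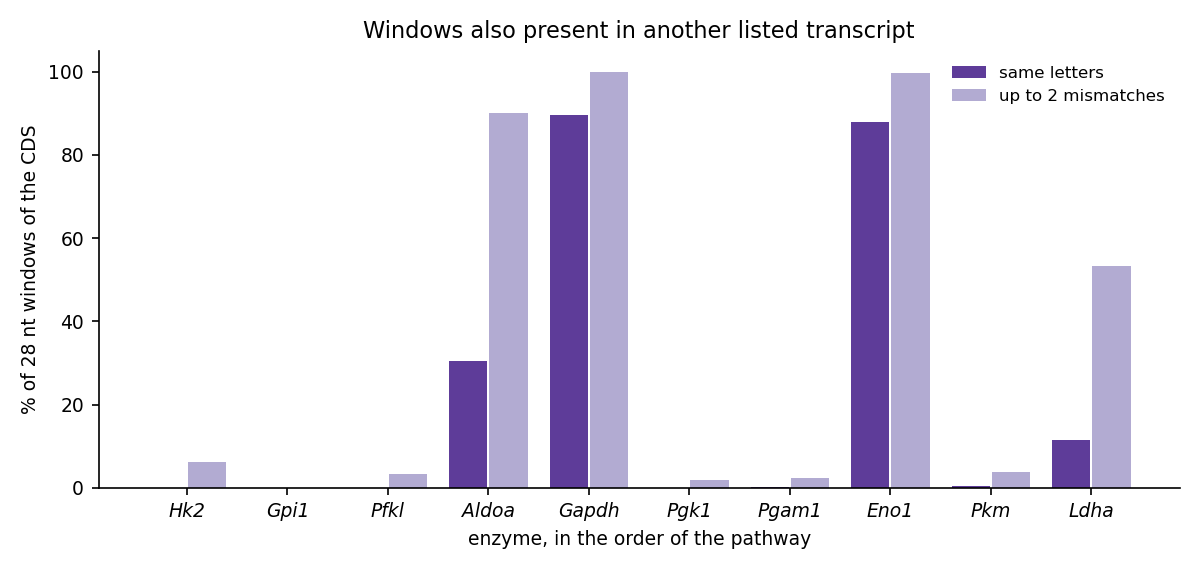
Percentage of 28-nt CDS windows of each enzyme that occur in another listed transcript, with the same letters (dark bars) or with up to 2 mismatches (light bars). *Gapdh* (89.6%) and *Eno1* (87.9%) stand far above the other enzymes for identical windows, and *Aldoa* (90.1%) joins them once mismatches are allowed.

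*Gapdh* had 132 to 226 counts per library and *Eno1* had 207 to 430, the fewest of the set, whereas *Pkm* had 13957 to 24801. Over the other enzymes counts did not track the shared windows, as *Aldoa* had 1750 to 3600 counts and *Ldha* 2384 to 5297, against 963 to 2481 for *Hk2*, none of whose windows was identical elsewhere. *Eno1b* had more counts than *Eno1* in all 15 libraries, 368 to 552. No enzyme had a count of 0. Listed pseudogenes such as *Gm5523*, with 344 windows identical to *Gapdh*, and *Gm13315* had no counts in any library. Counts of *Gapdh* and *Eno1*, and to a lesser degree *Aldoa* and *Ldha*, cover the part of the message that could be placed on 1 transcript.

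Relative synthesis was read as normalized CPM per kb of the counted CDS, which leaves out the first 15 and last 5 codons. In WT total RPFs, *Pkm*, the pyruvate kinase that makes pyruvate and ATP, was highest at 2059.6 ± 57.6 CPM per kb (SD, n = 3), rank 14 of 10084 tested transcripts of known length. Its clones held 2074, 1996 and 2108 CPM per kb. *Pgam1*, the phosphoglycerate mutase, followed at 1328 ± 76.8 (rank 69), *Pgk1* at 1239 ± 39.6 (rank 74) and *Ldha*, the lactate dehydrogenase chain abundant in muscle, at 1009 ± 114 (rank 97). The *Ldha* model is marked as incomplete at the end of its CDS, so its length is that of the listed part (710 nt). These 4 were the highest of the set.

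The 4 enzymes of the upper arm came next on the same scale. *Gpi1*, which interconverts glucose 6-phosphate and fructose 6-phosphate, reached 634 ± 39.6 CPM per kb (rank 193), *Aldoa* 448 ± 11.3 (rank 324), *Pfkl*, a phosphofructokinase subunit at a control point of the pathway, 196 ± 11.5 (rank 975), and *Hk2*, the hexokinase that traps glucose, 118 ± 10.7 (rank 1627). *Eno1* and *Gapdh*, of the lower arm, came last. *Eno1* lay at 42.3 ± 0.659 (rank 3735) and *Gapdh* at 29.6 ± 5.50 (rank 4664), not far from the median of all tested transcripts, 25.5 CPM per kb. Between neighbours in this order, *Pgam1* and *Pgk1* overlapped over the WT clones, and over all 9 clones *Pgk1* and *Ldha* overlapped too. All other neighbours were separate over the 9 clones.

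Dividing instead by the windows found in no other listed transcript changed the order only where sequence was shared. *Eno1* became 341 and *Gapdh* 275 CPM per kb, both above *Pfkl* (193) and *Hk2* (117), and *Aldoa* became 624, level with *Gpi1* (621). *Pkm* stayed highest at 2024. That scale rests on 154 windows of *Eno1* and 101 of *Gapdh*, and none of the latter lacks a counterpart within 2 mismatches. The windows span the whole CDS, whereas the counts leave out codons at its start and end. The *Gapdh* stretch richest in differences lies near the start of its CDS. How many unique windows fell in the uncounted ends was not examined. The levels and places of *Gapdh* and *Eno1* on this scale are therefore uncertain.

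**Figure D2:**
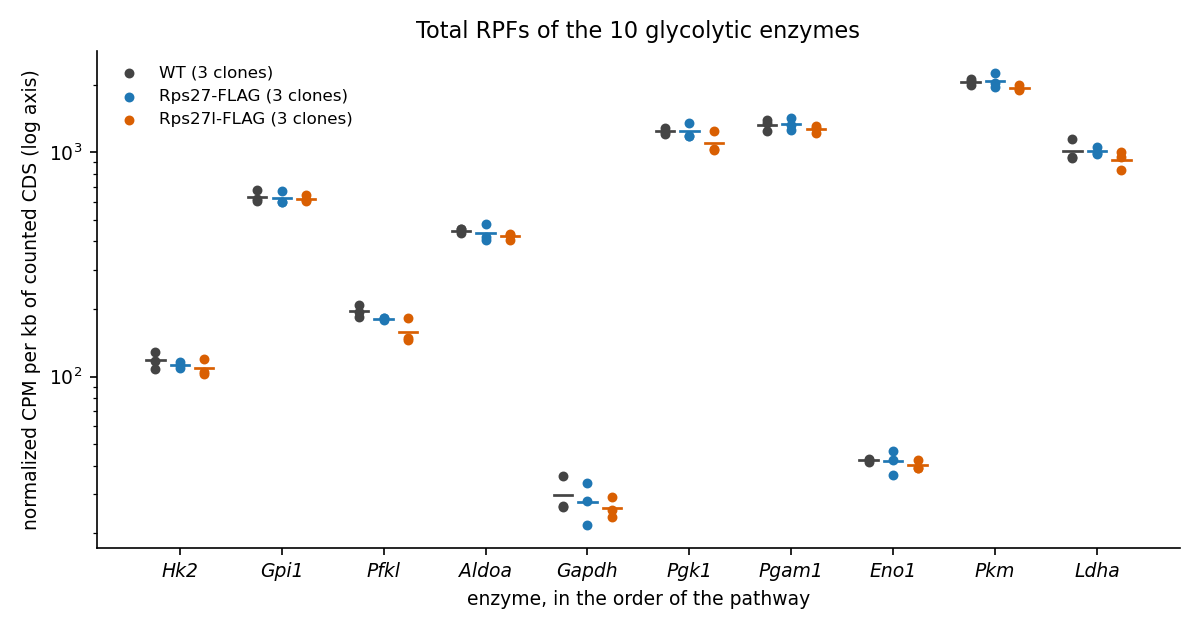
Total RPF level of each enzyme in normalized CPM per kb of counted CDS (log axis), in pathway order; points are the 9 clones coloured by line and short bars the mean of 3 clones. *Pkm* lies highest (1891 to 2246) and *Gapdh* lowest (21.8 to 36.0), and the 3 lines lie close together for each enzyme.

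Together the 10 enzymes took 0.768% to 0.890% of all counts in total libraries and 0.856% to 1.01% in IP libraries, and *Pkm* alone held 35.8% to 40.7% of their counts. Clones differed little. The SD of log2 normalized CPM within a line was 0.068 for *Pkm*, 0.078 for *Pgam1*, 0.079 for *Aldoa*, 0.080 for *Gpi1*, 0.10 to 0.12 for *Hk2*, *Eno1*, *Pfkl*, *Pgk1* and *Ldha*, and 0.25 for *Gapdh*. The median over all tested transcripts was 0.16, which only *Gapdh* exceeded. Abundance was not matched in this comparison. In WT, CPM per kb was 80.8 times the median of tested transcripts for *Pkm*, 1.66 times for *Eno1* and 1.16 times for *Gapdh*. Of 45 pairwise Pearson correlations between enzymes over the 9 total libraries 43 were above 0, with a median of 0.63 and a range of -0.24 to 0.87. Over all pairs of tested transcripts the median was -0.00023, with no account taken of abundance. The points share libraries, pools and scaling, and the values are descriptions. The transcripts outside the lists whose log2 level followed the mean of the enzymes most closely over the same 9 libraries were *Mif* (r = 0.91), *Kpnb1* (r = 0.90), *Tmem120a* (r = 0.90), *Kdm4b* (r = 0.86) and *Rpgrip1l* (r = 0.86), the top 5 of all tested.

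Several reactions have more than 1 isozyme in the mouse, and isozymes of the same reaction were set beside the members after their values were seen. *Pfkp*, the phosphofructokinase first described in platelets, lay at 230 ± 38.8 CPM per kb (SD, n = 9) and *Pfkl* at 178 ± 19.9, with overlapping clones (161 to 300.4 and 145 to 208). *Ldhb* lay at 432 ± 126 against 982 ± 84.8 for *Ldha*, without overlap. *Hk1* reached 47.1 ± 4.02 against 113 ± 8.26 for *Hk2*, and *Aldoc* 33.7 ± 8.68 against 435 ± 23.7 for *Aldoa*. *Pgam2* and *Pklr*, known from muscle and from liver, lay at 7.34 and 0.713 CPM per kb.

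Whether adding the tag altered synthesis of these enzymes was asked of the total RPFs. Against WT, 0 of 10 enzymes passed in either tagged line, and 0 of 10 passed between the tagged lines (edgeR quasi-likelihood test, Benjamini-Hochberg adjusted p under 0.05). Over all tested transcripts the shares called were 0.00%, 0.00% and 0.00%. At an unadjusted p under 0.05 edgeR gave 294, 574 and 580 transcripts, voom 295, 585 and 577, and DESeq2 188, 422 and 425, and neither tool made a call after adjustment. Among the enzymes, *Pfkl* alone was below that unadjusted limit in edgeR, once against WT and once between the tagged lines, both for *Rps27l-FLAG*. With the replicate number as a block, edgeR called 1, 144 and 137 transcripts, none of them these enzymes.

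In *Rps27-FLAG* the fitted log2 fold changes ran from -0.11 for *Pfkl* to 0.013 for *Pkm*, with a median of -0.018 beside -0.0011 over all tested transcripts. In *Rps27l-FLAG* all 10 lay below 0, from -0.30 for *Pfkl* to -0.032 for *Gpi1*, with a median of -0.10 beside 0.0026 over all. Against *Rps27-FLAG* the *Rps27l-FLAG* values ran from -0.19 for *Pfkl* to -0.010 for *Gpi1* (median -0.083, and 0.0032 over all). Single clones moved these medians. In *Rps27-FLAG* against WT the median was -0.074 without *Rps27-FLAG* replicate 3, 0.026 without its replicate 1, 0.0054 without its replicate 2, 0.0073 without WT replicate 1 and -0.041 without WT replicate 2. Between the tagged lines it was -0.14 without *Rps27-FLAG* replicate 1 and -0.036 without its replicate 3. *Pfkl* there was -0.30 without *Rps27l-FLAG* replicate 2 and -0.13 without its replicate 1. The comparisons with WT share the WT libraries, and all these values share each library's scaling.

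*Pfkl* showed the widest separation. Its normalized CPM was 474, 421 and 443 in the WT clones, 408, 414 and 416 in *Rps27-FLAG*, and 331, 414 and 340 in *Rps27l-FLAG*. All tagged clones thus lay below all WT clones, and *Rps27l-FLAG* replicate 2 stood with the *Rps27-FLAG* clones. For *Rps27l-FLAG* against WT the log2 fold change was -0.30 (SE 0.083, edgeR adjusted p = 0.82), and with the replicate block adjusted p = 0.067. *Aldoa* (log2 -0.086, SE 0.066, adjusted p = 0.83) and *Pkm* (log2 -0.091, SE 0.055, adjusted p = 0.83) were the other enzymes whose *Rps27l-FLAG* clones all lay below WT. The gaps were narrow. The highest *Rps27l-FLAG* and lowest WT values were 444.0 and 448.6 normalized CPM for *Aldoa*, and 3059.02 and 3059.97, nearly a tie, for *Pkm*. Non-overlapping clones were found for 1 of 10 enzymes in *Rps27-FLAG* against WT (background 8.52% of tested transcripts), 3 of 10 in *Rps27l-FLAG* against WT (9.65%) and 0 of 10 between the tagged lines (11.5%).

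*Pgk1* illustrates how single replicates differed: 1529, 1440.02 and 1458 normalized CPM in WT, 1409, 1406 and 1614 in *Rps27-FLAG*, and 1221, 1476 and 1235 in *Rps27l-FLAG*. *Rps27l-FLAG* replicates 1 and 3 were the lowest of the 9, and replicate 2 lay within WT. The difference from WT was -0.17 (log2, SE 0.081, edgeR adjusted p = 0.82).

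The IP libraries asked which mRNAs were over- or under-represented on ribosomes holding the tagged protein. In *Rps27-FLAG*, *Hk2* and *Pfkl* were lower in IP than in total RPFs, 2 of 10 enzymes called and none higher, where 5.67% of all tested transcripts were called (33 higher, 539 lower). *Hk2* held 295, 311 and 302 normalized CPM in total RPFs and 231, 259 and 246 in IP RPFs of clones 1, 2 and 3, so the fractions did not overlap. The log2 fold change was -0.30 (SE 0.063, edgeR adjusted p = 0.033). *Pfkl* held 408, 414 and 416 in total and 354, 355 and 336 in IP, again apart, with a log2 fold change of -0.24 (SE 0.054, adjusted p = 0.040).

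The other 8 enzymes did not pass in *Rps27-FLAG*, with log2 values from -0.015 for *Aldoa* to 0.32 for *Gapdh* (SE 0.22). *Pkm* lay at 0.17 (SE 0.093, adjusted p = 0.32) and *Pgk1* at 0.20 (SE 0.092, adjusted p = 0.26). The median of the 10 was 0.066, beside -0.010 over all tested transcripts, and 0.041 without replicate 2. Fractions did not overlap for *Hk2* and *Pfkl* alone (background 28.3%). Leaving out replicate 2 or replicate 3 left no transcript called at all, with adjusted p = 0.33 and 0.36 for *Hk2* and 0.44 and 0.42 for *Pfkl*. Without replicate 1, *Pgk1* and *Pkm* were called higher beside *Hk2* and *Pfkl* lower. That setting called 1817 of all 10085 tested transcripts (677 higher, 1140 lower).

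In *Rps27l-FLAG*, *Pkm* was higher in IP RPFs, the 1 enzyme of 10 called, where 3.10% of all tested transcripts were called (84 higher, 229 lower). Its total RPFs held 2898, 3059 and 2935 normalized CPM and its IP RPFs 3455, 4106 and 3567, with no overlap. The log2 fold change was 0.32 (SE 0.067, edgeR adjusted p = 0.041). *Pgam1* was the other enzyme with separate fractions, 851, 895 and 920.3 in total against 950.5, 1070.1 and 975 in IP (log2 0.17, SE 0.057, adjusted p = 0.18, background 23.3%).

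*Pgk1* had a log2 value close to that of *Pkm*, 0.31 (SE 0.11, adjusted p = 0.20), but its clone 2 in total RPFs (1476) exceeded clone 1 in IP RPFs (1443). *Hk2* (-0.18, SE 0.085) and *Pfkl* (-0.15, SE 0.12) lay below 0 as in the other line, without passing (adjusted p = 0.32 and 0.58). The median of the 10 was 0.15, beside -0.031 over all tested transcripts, and 0.093 without replicate 2. The *Pkm* call was lost without replicate 1 (adjusted p = 0.19), without replicate 2 (0.29) and without replicate 3 (0.069). DESeq2 called *Pgk1* as well, among 460 of 10085 tested transcripts.

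**Figure D3:**
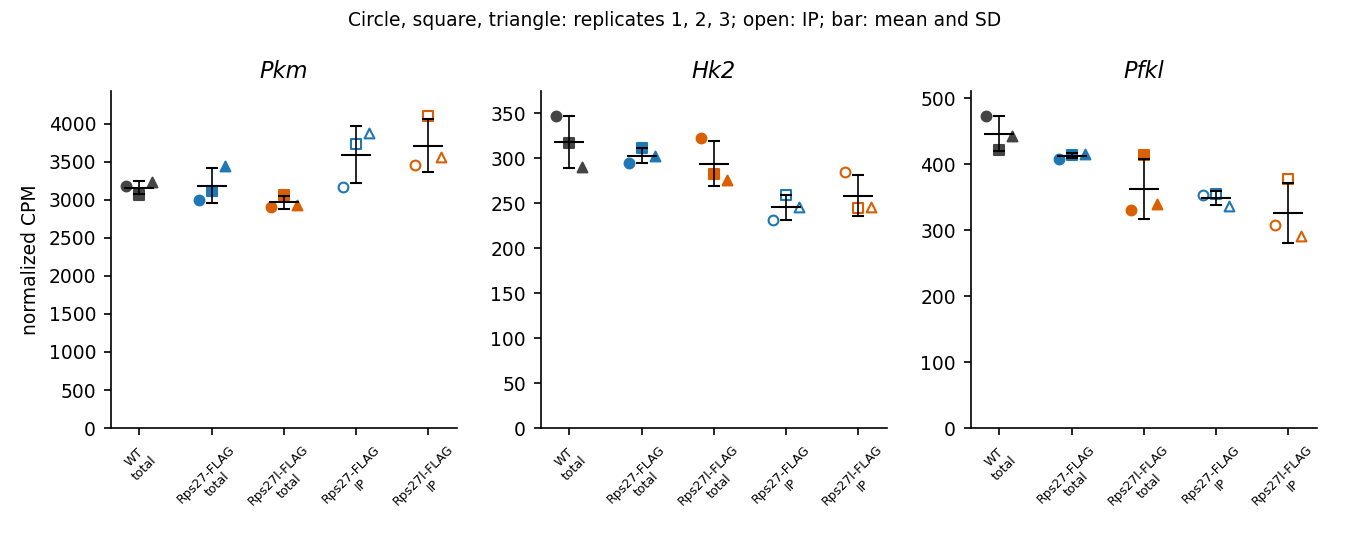
Normalized CPM of *Pkm*, *Hk2* and *Pfkl* in each of the 15 libraries (axes from 0); filled symbols are total RPFs, open symbols IP RPFs, shapes mark replicates 1 to 3, and bars give the mean and SD of 3 clones. *Hk2* and *Pfkl* IP values in *Rps27-FLAG* lie below all total values of that line, and *Pkm* IP values in *Rps27l-FLAG* lie above all of its total values.

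IP and total libraries came from the same clone, so each clone also gave a ratio of its own. In both tagged lines *Gapdh*, *Pgk1*, *Pgam1*, *Eno1*, *Pkm* and *Ldha* had a log2 IP/total ratio above 0 in all 3 clones, and *Hk2* and *Pfkl* had one below 0 in all 3. *Gpi1* and *Aldoa* joined the first set in *Rps27l-FLAG* and had mixed signs in *Rps27-FLAG*. Over all tested transcripts 28.9% lay above 0 in all 3 clones and 32.9% below in *Rps27-FLAG*, and 23.7% and 31.7% in *Rps27l-FLAG*.

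With the clone as a block (replicate block) many more transcripts were called, 41.2% in *Rps27-FLAG* and 31.0% in *Rps27l-FLAG*. In *Rps27-FLAG*, 7 of the 10 enzymes then passed, *Hk2* and *Pfkl* lower and *Gapdh*, *Pgk1*, *Eno1*, *Pkm* and *Ldha* higher. In *Rps27l-FLAG* 9 passed, *Hk2* and *Pfkl* lower and the other enzymes but *Eno1* higher (*Eno1* 0.14, SE 0.067, adjusted p = 0.10). *Pgk1* reached 0.20 (SE 0.031) and 0.31 (SE 0.027) in the respective lines, and *Pkm* 0.17 (SE 0.033) and 0.32 (SE 0.028).

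**Figure D4:**
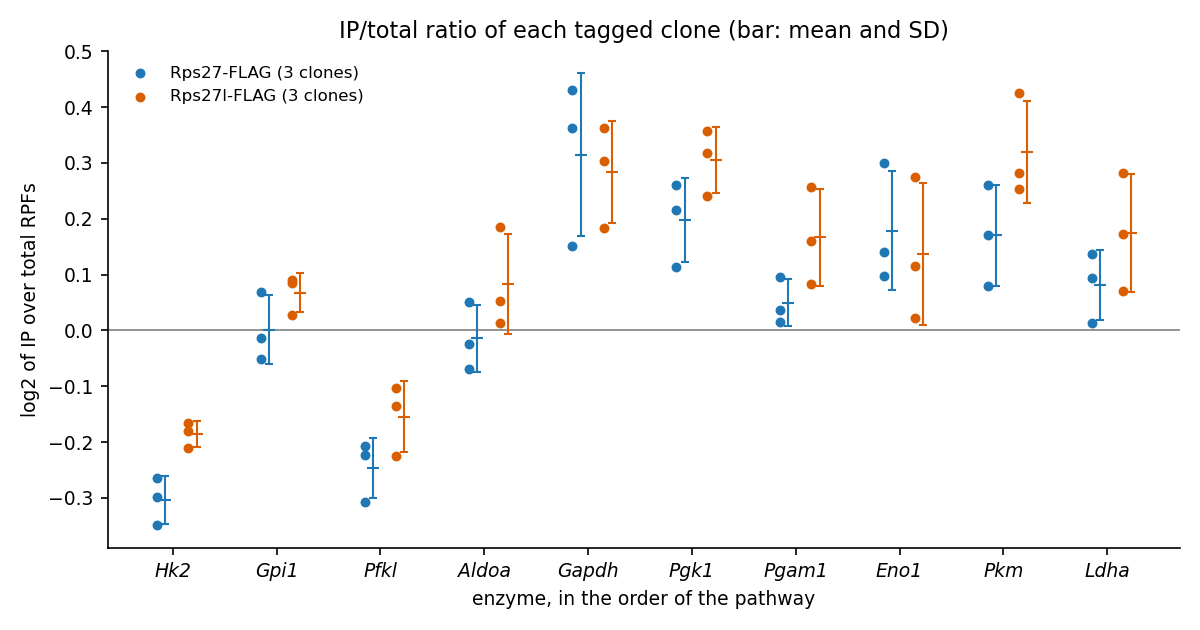
Log2 of normalized IP over total RPFs for each enzyme and tagged clone, in pathway order; points are clones and bars the mean and SD of 3. *Hk2* and *Pfkl* lie below 0 in every clone of both lines, *Pkm* and *Pgk1* above 0 in every clone.

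CDS length moved with these ratios. Over 10084 tested transcripts, log2 CDS length and the mean log2 IP/total ratio had a Pearson correlation of -0.57 for *Rps27-FLAG* clones and -0.53 for *Rps27l-FLAG* clones, and over the 10 enzymes of -0.65 and -0.66. All points in a line share its 6 libraries, and the length used for *Ldha* is that of its incomplete model (710 nt). *Hk2* (2751 nt) and *Pfkl* (2340 nt) have the longest CDSs of the set, and tested transcripts of over 2000 and up to 3000 nt had a median log2 ratio of -0.12 for *Rps27-FLAG* clones and -0.11 for *Rps27l-FLAG* clones. *Pkm* (1593 nt) lay at 0.17 and 0.32 in a length class, over 1500 and up to 2000 nt, with medians of -0.048 and -0.053.

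With the length trend of each library removed, in the fit with the replicate block, *Hk2* was at -0.18 (SE 0.033) and *Pfkl* at -0.16 (SE 0.031) in *Rps27-FLAG*, both still called. In that line *Gapdh*, *Pgk1*, *Eno1* and *Pkm* stayed called higher, *Ldha* was no longer called, and *Aldoa* (-0.076, adjusted p = 0.048) and *Pgam1* (-0.080, adjusted p = 0.034) were called lower. Of the 9 enzymes called with the block in *Rps27l-FLAG*, *Hk2*, *Gpi1*, *Pgk1* and *Pkm* kept the call, and *Pfkl*, *Aldoa*, *Gapdh*, *Pgam1* and *Ldha* lost it. Of all 10085 tested transcripts this fit called 3073 in *Rps27-FLAG* and 2257 in *Rps27l-FLAG*, so a call was common. The median of the 10 became -0.022 in *Rps27-FLAG*, beside -0.030 over all tested transcripts, and 0.077 in *Rps27l-FLAG*, beside -0.040.

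In *Rps27l-FLAG* *Hk2* moved to -0.087 (SE 0.032, adjusted p = 0.039) and *Pfkl* to -0.079 (SE 0.031, adjusted p = 0.057). *Pkm* remained at 0.18 (SE 0.036) and 0.33 (SE 0.029), and *Pgk1* at 0.16 (SE 0.032) and 0.29 (SE 0.027). The short CDSs moved most the other way: in *Rps27-FLAG*, *Pgam1* (762 nt) went from 0.049 to -0.080. There *Ldha*, placed by the 710 nt of its incomplete model, went from 0.080 (edgeR adjusted p = 0.020) to -0.061 (adjusted p = 0.12). Its shift with a complete CDS length was not tested.

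**Figure D5:**
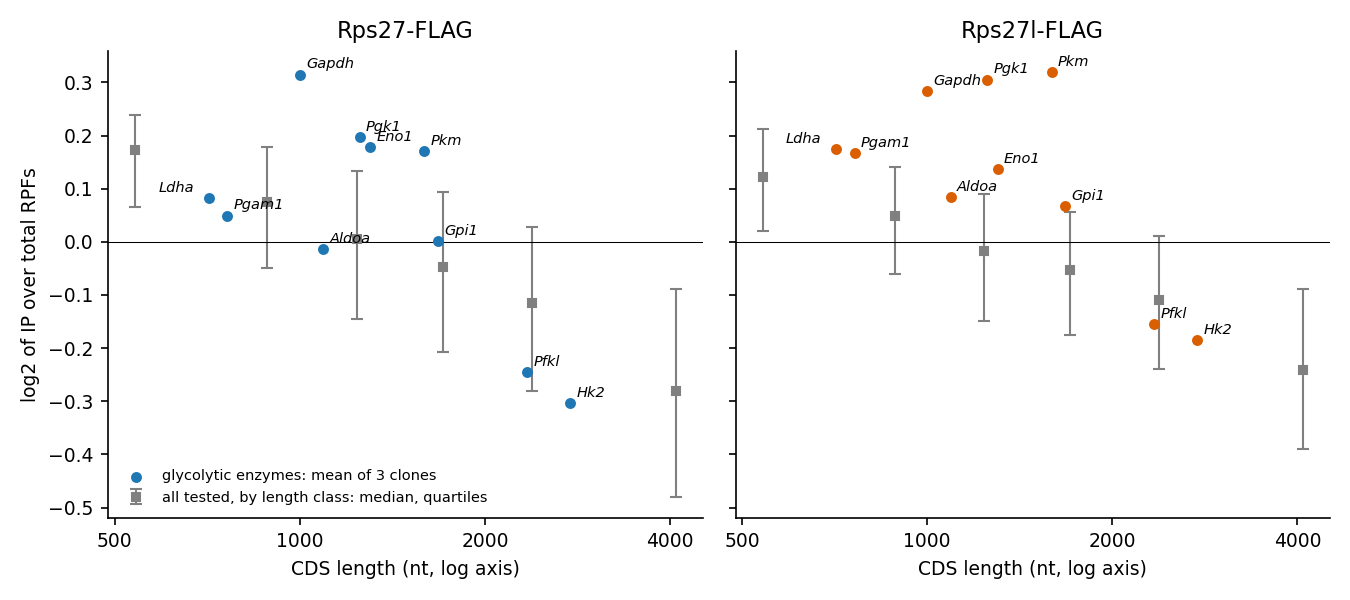
Log2 IP/total ratio against CDS length (log axis) for both tagged lines. Coloured points are enzymes (mean of 3 clones), and grey squares are the median of all tested transcripts in 6 length classes with quartiles. The *Ldha* point is placed by the length of its incomplete model. Grey medians fall from 0.17 to -0.28 in *Rps27-FLAG* and from 0.12 to -0.24 in *Rps27l-FLAG*; *Pkm*, *Pgk1*, *Eno1* and *Gapdh* lie above the upper quartile of their classes in both lines.

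The difference between the lines in IP/total ratio, fitted with the clone as a block, asked whether Rps27l- and Rps27-ribosomes differ for these mRNAs. *Pkm* was called, 1 of 10 enzymes where 1.50% of all tested transcripts were called (137 higher in *Rps27l-FLAG*, 14 lower). Its log2 ratios were 0.079, 0.26 and 0.17 in *Rps27-FLAG* clones and 0.25, 0.42 and 0.28 in *Rps27l-FLAG* clones, so that 1 clone of the first line exceeded the lowest of the second. The fitted difference was 0.15 (SE 0.041, edgeR adjusted p = 0.030), and with an added limit of 0.25 on the absolute log2 difference 58 transcripts and none of the enzymes remained. The call was lost under DESeq2 (adjusted p = 0.48), with DESeq2 size factors (0.053), without the block, and without *Rps27-FLAG* replicate 1 (0.27), *Rps27-FLAG* replicate 3 (0.19), *Rps27l-FLAG* replicate 2 (0.34) or *Rps27l-FLAG* replicate 3 (0.11), with differences of 0.097 to 0.20 when a clone was left out. Other fits added enzymes. Voom with limma called *Pgk1* (0.11, adjusted p = 0.034), *Pgam1* (0.12, adjusted p = 0.039) and *Pkm* (adjusted p = 0.00029), and removal of the length trend left *Pkm* called (adjusted p = 0.038) and added *Pgam1* (0.15, adjusted p = 0.028).

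Of the other enzymes, 7 had a fitted difference above 0, from 0.068 for *Gpi1* to 0.12 for *Hk2*, and *Gapdh* (-0.035, SE 0.13) and *Eno1* (-0.043, SE 0.092) had one below. *Hk2* was the only enzyme whose clones did not overlap (background 16.2%), with ratios of -0.35, -0.26 and -0.30 in *Rps27-FLAG* and -0.18, -0.21 and -0.17 in *Rps27l-FLAG* (difference 0.12, SE 0.045, adjusted p = 0.20). The median over the 10 was 0.099, beside -0.0030 over all tested transcripts.

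Genes around the pathway came from 6 further lists with 73 genes, of which 50 were tested. None passed in the total RPF comparisons (edgeR, where 1, 4 and 7 had an unadjusted p under 0.05 in *Rps27-FLAG* against WT, *Rps27l-FLAG* against WT and between the tagged lines). In *Rps27-FLAG* IP against total RPFs, 2 of the 50 were called, where 5.67% of all tested transcripts were called (33 higher, 539 lower). There 14 of the 50 had an unadjusted p under 0.05. *Pfkp* was lower (-0.33, SE 0.074, edgeR adjusted p = 0.045), the 1 call among 12 other glycolytic isozymes. *Pdpr*, a regulatory subunit of pyruvate dehydrogenase phosphatase, was lower (-0.58, SE 0.080, adjusted p = 0.0063), the 1 call among 14 genes of pyruvate entry to mitochondria. Both CDSs (2352 and 2634 nt) fall in the class of over 2000 and up to 3000 nt, with a median log2 ratio of -0.12 in this line. In *Rps27l-FLAG* none of the 50 passed, where 3.10% of all were called, and 6 had an unadjusted p under 0.05.

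Between the lines, 3 of the 50 were called with a higher IP/total ratio in *Rps27l-FLAG*, where 1.50% of all tested transcripts were called (137 higher, 14 lower). The glucose transporter genes *Slc2a3* (0.19, SE 0.039, adjusted p = 0.0011) and *Slc2a1* (0.13, SE 0.038, adjusted p = 0.047) were 2 of 5 genes of glucose and lactate transport, whose median was 0.13. *Tkt*, the transketolase of the pentose phosphate pathway (0.14, SE 0.038, adjusted p = 0.037), was 1 of 8 there, with a list median of 0.021. For each of the 3 all *Rps27l-FLAG* clones lay above all *Rps27-FLAG* clones, seen in genes already picked as called (background 16.2% of tested transcripts, either direction). The *Slc2a3* ratios were -0.074, 0.037 and -0.026 in *Rps27-FLAG* and 0.14, 0.25 and 0.11 in *Rps27l-FLAG*. Those of *Slc2a1* were -0.10, -0.059 and -0.12 against 0.039, 0.018 and 0.063. *Tkt* lay below 0 in every clone of both lines, at -0.20, -0.11 and -0.17 against -0.032, -0.011 and -0.029. Leaving out clones, DESeq2 and other scalings were not examined for these 3 genes.

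List levels in total RPFs (mean over 9 clones, CPM per kb) placed *Slc2a3* at 1368, near *Pgam1*, while *Slc2a2*, the liver and beta-cell transporter gene, had 1 count in all. Triose phosphate isomerase, *Tpi1*, led the other isozymes at 568 ± 62.1 (SD, n = 9). *Myc* (113) was highest of the glycolysis regulators and *Pfkfb4* (0.745) lowest. *Pdha1* (313) was highest and *Pdk4* (3.16) lowest for pyruvate entry, *Tkt* (589) and *Tktl1* (0.858) for the pentose phosphate pathway, and *Pck2* (90.3) and *Pck1* (2 counts in all) for gluconeogenesis, in which 5 of 6 genes were listed.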

How the data were processed

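Per the labels and the study's methods, the authors trimmed reads with cutadapt 2.4, removed duplicates with UMI-tools 1.0.1, and aligned with Bowtie2 2.3.4.3 to a GRCm38/mm10 set of canonical transcripts. The deposited values are raw counts of uniquely aligned RPFs, assigned by A site to each CDS after 15 codons at its start and 5 at its end were excluded. Transcript identifiers were named through GENCODE M21, where 21723 of 21727 were found, and coordinates and sequences come from it.

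Mitochondrial transcripts (13) and those without over 2 CPM in at least 14 libraries were left out, and tested transcripts held at least 98.7% of counts in each library. TMM factors were computed separately for IP and total libraries. The main test was edgeR 4.0.16 (quasi-likelihood, R 4.3.3) with Benjamini-Hochberg adjustment over 10085 transcripts and a threshold of 0.05. Total RPFs were fitted by cell line over 9 libraries, IP against total RPFs by fraction over 6, and the difference between lines by line, clone and fraction over 12. Alternatives were voom with limma 3.58.1, DESeq2 1.42.0, other scalings and filters, the replicate block, removal of a loess trend (span 0.5) on CDS length, and leaving out clones. Scripts were tested on simulated counts drawn without clone or pool effects, which checks the code and not the calls reported here. Clone ratios add 0.5 counts, and levels use 1 transcript per gene.

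Replicate libraries differed by more than sampling noise (chi-square per degree of freedom of 1.78 to 10.3). IP and total libraries are paired by clone, as the labels' clone names show, and their residuals correlated at 0.48 to 0.80 in all 6 pairs. Residuals of libraries with the same replicate number but from different lines also correlated, with a median of 0.45 (-0.17 to 0.72). With 3 clones per line, errors here include differences between clones. Within a line each clone was also in its own pool, so differences between clones and between pools cannot be told apart.

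The enzymes and gene lists were chosen with earlier results of these data known. Text names all 10 enzymes, and from other lists called transcripts and the highest and lowest level, transcripts sharing windows with enzymes of few counts, and the 5 closest in pattern.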

Additional observations from a re-analysis of the deposited data

Results flagged for a closer look

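The IP/total ratio differed between *Rps27l-FLAG* and *Rps27-FLAG* for *Pkm* among the 10 enzymes, by 0.15 on the log2 scale (edgeR interaction fit, adjusted p = 0.030, higher in *Rps27l-FLAG*), with overlapping clones. *Pkm* was called in 8 of 15 settings, the main fit included, and DESeq2 was not among them. Among the surrounding genes it differed for *Slc2a3* (0.19), *Tkt* (0.14) and *Slc2a1* (0.13), with no overlap between clones (background 16.2% of tested transcripts). All these differences are smaller than 0.25. Leaving out clones, DESeq2 and other scalings were not examined for *Slc2a3*, *Tkt* and *Slc2a1*.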

How the results depend on the processing

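The replicate block changed most counts of calls. In total RPFs it gave 1, 144 and 137 called transcripts (*Rps27-FLAG* against WT, *Rps27l-FLAG* against WT, and *Rps27l-FLAG* against *Rps27-FLAG*) in place of 0 in each. For IP against total RPFs it gave 4154 in place of 572 in *Rps27-FLAG* and 3128 in place of 313 in *Rps27l-FLAG*, and 3073 and 2257 once the length trend was also removed. For the difference between lines, 151 became 0 without the block, 36 with DESeq2 and 58 with the fold change limit. Leaving out single clones gave 0 to 1817 calls in *Rps27-FLAG* (0 without replicate 2 or 3, 1817 without replicate 1), 0 to 319 in *Rps27l-FLAG* (0 without replicate 1 or 2), 86 to 149 between lines, and 0 to 1 for *Rps27l-FLAG* total RPFs against WT and against *Rps27-FLAG*, the 1 without *Rps27l-FLAG* replicate 2.

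Some directions turned. With length trend and block, *Pgam1* became -0.080 in *Rps27-FLAG* and was called lower. There *Ldha*, called higher with the block alone, became -0.061 without a call, by the length of its incomplete model. *Aldoa* there became 0.010 with DESeq2 and 0.013 with its size factors. Leaving out clones gave -0.046 to 0.0098 for *Aldoa* and -0.032 to 0.026 for *Gpi1* in *Rps27-FLAG*, and, between lines, -0.12 to 0.027 for *Gapdh* and -0.12 to 0.022 for *Eno1*. The causes were not tested. The *Hk2* and *Pfkl* calls were also lost with DESeq2 size factors (adjusted p = 0.060 and 0.069), and that of *Pfkl* without a filter on low counts (0.086). Of 488 alternative fold changes 434 kept direction and side of the threshold. They covered every enzyme for IP against total RPFs and between lines, but only some enzymes in total RPFs. Those were *Pfkl* in each total RPF comparison, *Pgk1* and *Pkm* in both with *Rps27l-FLAG*, and *Aldoa* in *Rps27l-FLAG* against WT. Some total RPF settings left out a clone of the line not compared, which hardly changed the fold change. The remaining total RPF fold changes are not part of this count. Low counts limit *Gapdh* and *Eno1* most, at 132 to 430 counts per library, with 89.6% and 87.9% of their windows identical in other listed transcripts.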
